A study of Mus musculus with 3 samples.

Results

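Cytosolic ribosomal protein genes encode the proteins of the small (40S, Rps) and large (60S, Rpl and Rplp) subunits of the ribosome that translates nuclear transcripts. Members were all genes of the deposited gene list whose symbol began with Rps, Rpl or Rplp and a digit, together with Rpsa, leaving out symbols with -ps (processed copies) and the Rps6k kinases. This took 87 of 28692 genes, of which 31 are 40S proteins, 43 are 60S proteins, 3 are stalk proteins and 10 are paralogs or other symbols outside the core set. The rule itself uses symbols and no measured value.

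The transcripts were read in wild-type TEa cells of the heart allograft and of the spleen, by droplet-based 3′ single-cell RNA sequencing 7 days after transplantation. TEa cells are CD4+ T cells with a transgenic receptor for an I-Eα alloantigen of BALB/c mice. The hosts were C57BL/6 mice, given naive, congenically marked wild-type TEa cells and afterwards a heart from a BALB/c donor, so both groups had the same host, donor graft and time and differed in the organ of recovery. Each group was 1 library. The number of animals behind a library, their age and whether animals were pooled were not given in the sources used here, and a spleen library of Ldha-/- TEa cells was not analysed here.

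Ribosomal protein transcripts are among the most abundant in any growing cell. Many begin with a cytosine followed by an uninterrupted run of pyrimidines (the 5′ terminal oligopyrimidine, or TOP, motif), through which the kinase complex mTORC1 and the binding protein Larp1 set how well they are translated. T cells build up ribosomes when antigen makes them grow and divide, and the transcripts are also used as a mark of quiescent lymphocytes, in which few other transcripts are made.

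Runs of pyrimidines were looked for in the sequences around the starts of members, and their length varied. Whether a run began with a cytosine at the start itself was not scored. Of the members, 66 had a window in the RefSeq promoter table (GRCm38.p6), reaching from 250 bases before the annotated start to 50 bases after it. The pieces below are 60 bases before and 20 bases after the start, with the longest run of C and T within 20 bases of the start in capitals. The first 4 are members that ranked 1, 2, 4 and 8 from the lowest heart over spleen ratio. They lie at chr2:32961652-32961731 for Rpl12 (plus strand), chr5:107900468-107900547 for Rpl5 (plus strand), chr3:90213629-90213708 for Rps27 (minus strand) and chr7:28350629-28350708 for Rps16 (plus strand).
Rpl12: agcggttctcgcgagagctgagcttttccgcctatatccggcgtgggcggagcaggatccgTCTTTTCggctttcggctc
Rpl5: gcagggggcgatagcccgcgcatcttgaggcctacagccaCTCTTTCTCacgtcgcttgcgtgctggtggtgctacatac
Rps27: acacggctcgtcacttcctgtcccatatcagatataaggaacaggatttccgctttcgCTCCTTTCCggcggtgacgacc
Rps16: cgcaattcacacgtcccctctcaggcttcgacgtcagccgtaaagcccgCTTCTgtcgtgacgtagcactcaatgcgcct
The following 4 are the 3 members that were at least 25% higher in heart cells and Rpsa, which came next. They lie at chr10:128549149-128549228 for Rpl41 (minus strand), chr2:26910747-26910826 for Rpl7a (plus strand), chr9:120127706-120127785 for Rpsa (plus strand) and chr9:66946026-66946105 for Rps27l (plus strand).
Rpl41: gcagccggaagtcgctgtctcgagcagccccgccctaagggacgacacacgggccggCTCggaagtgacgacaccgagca
Rpl7a: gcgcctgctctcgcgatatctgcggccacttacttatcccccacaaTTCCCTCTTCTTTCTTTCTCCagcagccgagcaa
Rpsa: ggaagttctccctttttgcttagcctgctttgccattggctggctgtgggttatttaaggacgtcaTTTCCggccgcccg
Rps27l: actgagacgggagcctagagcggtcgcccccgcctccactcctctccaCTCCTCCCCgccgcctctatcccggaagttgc
Rpl7a held a run of 21 pyrimidines, Rpl5, Rps27 and Rps27l held 9, Rpl12 held 7, Rps16 and Rpsa held 5, and Rpl41 held 3. Among the 8 members with the lowest ratios, Rps27rt, Rps15, Rpl7l1 and Rps3a1 are not shown. Their longest runs were 6, 7, 3 and 5.

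Pyrimidine runs and some promoter motifs were more frequent near the starts of members than of genes at large. The latter were not limited to genes expressed in these cells, so the sets were not matched for expression. A run of at least 8 pyrimidines on the gene's strand within 20 bases of the start was present in 28 of 66 member windows (42.4%), against 15.9% of all 27025 windows, and the median longest run was 7 against 5 bases. The ETS core CCGGAAG was found in 37.9% of member windows and 9.12% of all, the GC box GGGCGG in 60.6% and 35.9%, and the YY1 motif AAGATGGC in 7.58% and 2.88%. TATAAA was found in 9.09% of member windows and 14.2% of all. These were exact matches on either strand of the 300-base windows, none of the 4 motifs holds another, and RefSeq starts can differ from the starts used in these cells. Among members with a window, the pyrimidine run was present in 7 of 22 that were at least 20% lower in heart cells, in 2 of 3 that were at least 25% higher and in 19 of 37 in between.

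After filtering, 3986 heart cells and 6570 spleen cells were kept, with medians of 8236 and 7988 UMIs (unique molecular identifiers, each a counted transcript) and totals of 42254366 and 56250186. Markers of T cells summed to 12018 CPM (UMIs of a gene scaled to a common total in each library) in heart cells and 11915 CPM in spleen cells, and all 8 were detected in both. Erythroid markers stood at 0.071 CPM in heart cells (with Hbb-bs, Hbb-bt and Alas2 among those at 0 in a library) and 204 CPM in spleen cells, and the 11 monocyte or macrophage markers at 329 and 209 CPM, with Adgre1 at 0 in a library. The 6 B cell markers summed to 44.1 CPM in heart cells and 178 CPM in spleen cells, with Ms4a1 among those at 0 in a library. Naive or stem-like markers were at 508 CPM in heart cells and 2003 CPM in spleen cells, Th1-like markers at 2238 and 1014 CPM, Tfh-like markers at 1217 and 250 CPM, Treg markers at 183 and 61.7 CPM, and cycling markers at 1292 and 412 CPM. Mitochondrial transcripts took 3.23% of heart UMIs and 4.6% of spleen UMIs. Only 6 cell barcodes were shared by the libraries. The part of these differences in the results below was not tested, except where values without the cells concerned are given.

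Ribosomal protein transcripts took a smaller part of the transcriptome in graft cells. They made up 12590688 of the heart UMIs, or 29.8%, and 19780209 of the spleen UMIs, or 35.2%, a difference of -5.37 percentage points. The median cell devoted 30.1% of its UMIs to them in the heart library (5th to 95th percentile 21.2 to 40.8%) and 36.2% in the spleen library (24.2 to 43.1%). The distributions overlapped, since 591 heart cells (14.8%) lay above the spleen median and 1098 spleen cells (16.7%) lay below the heart median. In molecules per cell the order depended on the summary, with a median of 2582 in heart cells and 2884 in spleen cells but a mean of 3159 in heart cells and 3011 in spleen cells. No test was possible with 1 library per group, in which organ and library cannot be told apart.

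The gap was present in each of 5 groups of cells by depth. When the cells of each library were ranked by UMIs and divided into groups of equal size, the median share in heart cells was 30.1, 30.6, 31.4, 30.5 and 27.9% from the shallowest to the deepest, and that in spleen cells was 34.9, 36.4, 36.7, 36.9 and 35.9%. The deepest group of heart cells had a median of 18875 UMIs, against 11070 in the deepest group of spleen cells, so the groups are not matched in depth between libraries. In barcodes with at most 100 UMIs, which hold mostly RNA outside cells, members took 26.9% of UMIs in the heart library and 33.6% in the spleen library.

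**Figure D1:**
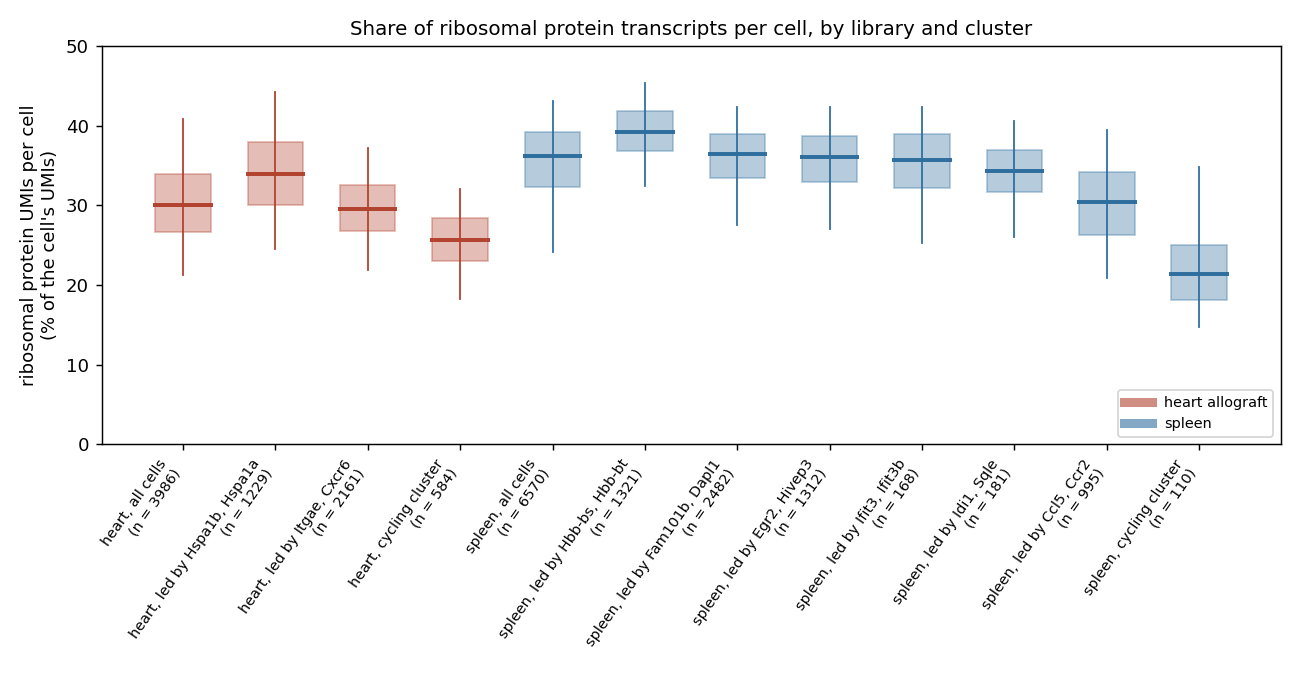
Share of each cell's UMIs that fell in ribosomal protein genes (percent), for all kept cells of a library and for each cluster, with heart in red and spleen in blue. Lines are medians, boxes the 25th to 75th percentiles and whiskers the 5th to 95th percentiles over cells of 1 library, and the medians for all cells are 30.1% in heart and 36.2% in spleen.

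Both subunits contributed, the small one more. Small subunit genes took 13.1% of all UMIs in heart cells, against 16.1% in spleen cells, and large subunit genes 16.7% and 19.0%. Of the UMIs of all members, the small subunit therefore held 44.0% in heart cells and 45.8% in spleen cells.

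Most members were lower in heart cells, each by a small amount. With at least 50 CPM in either library 82 members could be compared, and 71 of them had a negative log2 ratio, computed as (CPM + 1) of heart cells over that of spleen cells. A gene was counted as different when it was at least 25% higher or at least 20% lower in heart cells, the same fold in each direction. Of the 82, 34 (41.5%) were at least 20% lower in heart cells, where 25.4% of all 2705 genes past the same floor were, and 3 (3.66%) were at least 25% higher, where 32.1% of all genes were. None reached 2-fold in either direction, against 4.88% of all genes for lower and 11.7% for higher. The median log2 ratio was -0.25 for members and 0.05 for all genes, and the distance between the lower and upper quartile was 0.29 for members and 0.79 for all genes. Rpl7l1 passed the floor through the spleen library alone.

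Because members hold so many of the UMIs, their own level moves the totals. With totals that left out the members, the median log2 ratio over the same 2705 genes was -0.07 and that of the members -0.36. Then 45 of 82 members (54.9%) were at least 20% lower, with a background of 33.2% of all genes. At least 25% higher were 3 (background 26.5%), and Rpl12 reached 2-fold lower (background 6.73%).

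**Figure D2:**
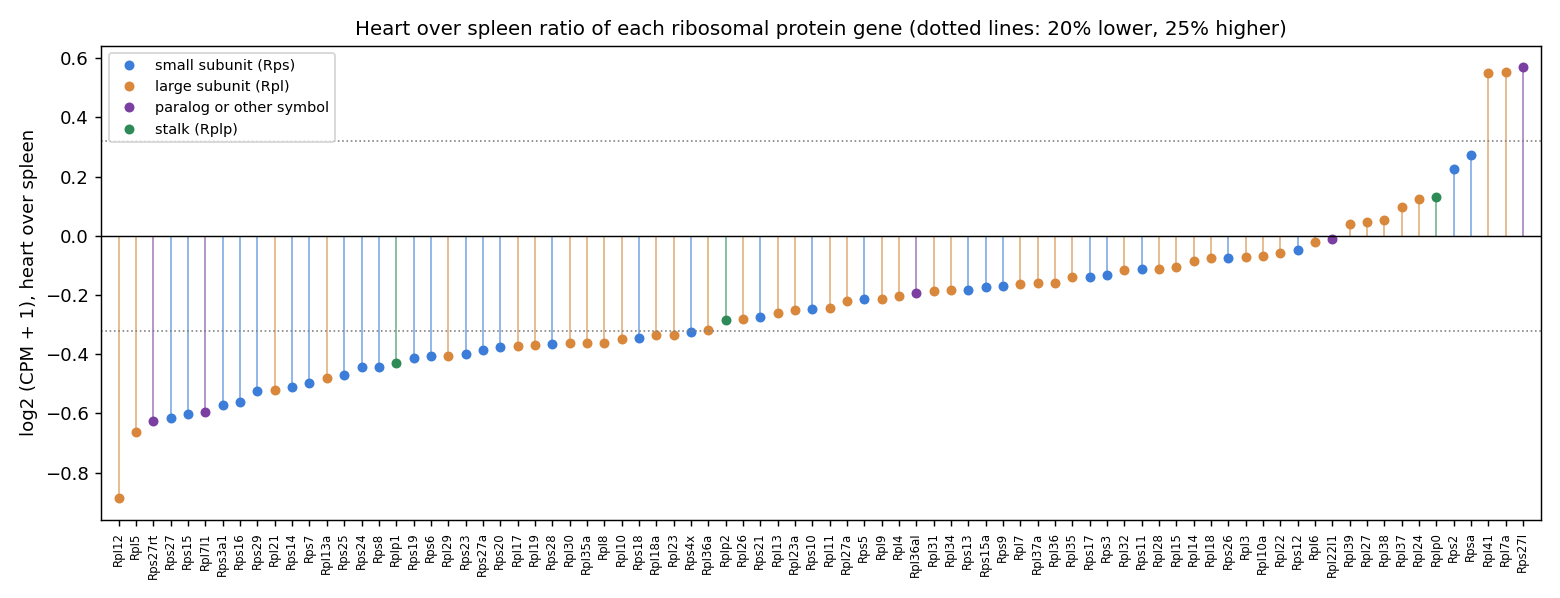
Heart over spleen log2 ratio of (CPM + 1) for the 82 members past the floor, ordered from lowest to highest and coloured by class. Points below the lower dotted line are the 34 members at least 20% lower in heart cells, and the 3 above the upper line are Rpl41, Rpl7a and Rps27l.

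Small subunit genes had a median log2 ratio of -0.37. Of the 31, all were past the floor, 18 were at least 20% lower in heart cells and 0 at least 25% higher. Of all genes past the floor, 25.4% were lower and 32.1% higher at these sizes. Rps27, a zinc-finger protein of the small subunit, had 4822 CPM (95% counting interval 4801 to 4843) in heart cells and 7390 CPM in spleen cells, a log2 ratio of -0.62. Rps15, which human cells need for export of the small subunit precursor from the nucleus, had 971 CPM (962 to 981) in heart cells and 1475 CPM in spleen cells (-0.60). Rps3a1 had 3930 CPM in heart cells and 5846 CPM in spleen cells (-0.57), and Rps16, whose tail reaches the decoding site, had 4973 and 7343 CPM (-0.56). All intervals are exact and cover counting error only. In these 4 genes the intervals of the libraries lie far apart, so counting error is small beside the difference, but the spread between animals was not measured.

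Some small subunit genes with roles beyond the core of the particle lay near the median of the class. Rps6, the target of the S6 kinases downstream of mTORC1, had 2064 CPM in heart cells and 2737 CPM in spleen cells (-0.41). Rps19, the gene most often mutated in Diamond-Blackfan anaemia in humans, had 4094 CPM in heart cells and 5446 CPM in spleen cells (-0.41), and Rps27a, made as a fusion with ubiquitin, had 3915 and 5115 CPM (-0.39). Rps4x had 3760 CPM in heart cells and 4711 CPM in spleen cells (-0.33). The 2 small subunit genes with the highest ratios were above 0. Rpsa, a small subunit protein also known as a precursor of the laminin receptor, had 8742 CPM (8714 to 8770) in heart cells and 7230 CPM in spleen cells (0.27). Rps2, at the messenger RNA entry of the small subunit, had 5057 CPM in heart cells and 4321 CPM in spleen cells (0.23).

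Large subunit genes had a median log2 ratio of -0.19, and they held the extremes of the core set. Of 43, all past the floor, 13 were at least 20% lower in heart cells and 2 at least 25% higher. The background was again 25.4% of all genes lower and 32.1% higher. Rpl12, a protein at the base of the stalk, had the lowest ratio of all members, with 3169 CPM (3153 to 3187) in heart cells and 5859 CPM in spleen cells (-0.89). It made up 1.06% of member UMIs in heart cells, against 1.67% in spleen cells. Rpl5, which joins Rpl11 and the 5S RNA in the particle that binds the p53 regulator Mdm2, had 1279 CPM (1268 to 1289) in heart cells and 2022 CPM in spleen cells (-0.66). Rpl11 itself had 3491 CPM in heart cells and 4137 CPM in spleen cells (-0.24), a smaller difference than that of its partner.

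A pair of large subunit genes went against the group. Rpl41, which encodes a very short basic peptide at the interface of the subunits, had 7184 CPM (7158 to 7209) in heart cells and 4908 CPM in spleen cells (0.55), and made up 2.41% of member UMIs in heart cells, against 1.40% in spleen cells. Rpl7a had 1906 CPM (1893 to 1919) in heart cells and 1298 CPM in spleen cells (0.55). These were the highest ratios of the core set. Next among large subunit genes was Rpl24, which bridges the subunits and had 3596 CPM in heart cells and 3297 CPM in spleen cells (0.13), and the log2 ratio of Rpl24 was -0.04 when Malat1, mitochondrial genes and members were all taken out of the totals. Rpl37, a zinc-finger protein, had 4207 CPM in heart cells and 3932 CPM in spleen cells (0.10), which turned to -0.02 with totals that left out members.

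The stalk genes, whose products recruit translation factors that use GTP, did not share a direction with all UMIs as the total. Rplp0, the base on which the others assemble, had 7145 CPM in heart cells and 6516 CPM in spleen cells (0.13), but the log2 ratio of Rplp0 was -0.04 with totals that left out mitochondrial and Malat1 counts as well as members. Rplp1 had 6775 CPM in heart cells and 9132 CPM in spleen cells (-0.43), and Rplp2 had 3351 and 4081 CPM (-0.28). Of the 3, Rplp1 alone was at least 20% lower in heart cells.

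Paralogs are close relatives that can take the place of a core protein, and 5 of the 10 symbols outside the core set passed the floor. Rps27l, the paralog of Rps27 and a known target of p53, had 285 CPM (280 to 290) in heart cells and 192 CPM in spleen cells, the highest log2 ratio of all members (0.57), while Rps27 had among the lowest. Its ratio was 0.34 in cells not scored as cycling, below those of Rpl7a (0.63) and Rpl41 (0.54), 0.19 in cycling cells and 0.11 against the spleen cluster led by Ccl5. There were 5.91 Rps27l UMIs per 100 Rps27 UMIs in heart cells (5.80 to 6.02) and 2.59 in spleen cells (2.55 to 2.64). The balance varied among clusters of each organ. It was 15.5 per 100 in the cycling cluster of the heart and 17 per 100 in that of the spleen, 5.24 in the spleen cluster led by Ccl5 and 4.5 in the heart cluster led by Itgae. In the heart cluster led by Hspa1b it was 2.43, within the 1.64 to 2.49 of the other spleen clusters.

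The other pairs differed less between the organs. Rpl22l1, the paralog of Rpl22, had 1029 CPM in heart cells and 1037 CPM in spleen cells (-0.01), and Rpl22 had 2553 and 2658 CPM (-0.06), which gave 40.3 Rpl22l1 UMIs per 100 Rpl22 UMIs in heart cells, against 39.0 in spleen cells. In the cycling cluster this was 51.8 per 100 in heart cells and 44.5 in spleen cells. Rpl36al had 1076 CPM in heart cells and 1230 CPM in spleen cells (-0.19) and Rpl36a had 1547 and 1927 CPM (-0.32), or 69.6 per 100 in heart cells and 63.8 in spleen cells, with a high of 90.7 in the spleen cluster led by Ccl5. Rpl7l1, a relative of Rpl7, had 37.7 CPM in heart cells and 57.4 CPM in spleen cells (-0.60), while Rpl7 had 2750 and 3076 CPM (-0.16).

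Rps27rt, a near copy of Rps27, had 216 CPM in heart cells and 334 CPM in spleen cells (-0.63). It kept to 4.48 UMIs per 100 of Rps27 in heart cells and 4.51 in spleen cells, and to between 4.29 and 4.72 in every cluster. It shares 88.4% of the 50-base stretches at the 3′ ends of its transcripts with other genes, so its counts and those of Rps27 cannot be told apart with confidence. Rpl36a shares 100% of such stretches with other genes, Rpl7 78%, Rpl36al 67.4%, Rpl22l1 61.2% and Rps27 58.5%. Rpl22, Rpl7l1 and Rps27l share 11.9, 6.6 and 13.3%. The counts per 100 given above for these pairs therefore carry a similar limit, most of all those of Rpl36al and Rpl36a. Tissue-restricted paralogs were at or near 0. Rpl3l, which takes the place of Rpl3 in striated muscle, had 0 UMIs in both libraries, which, at the 3 counts that a count of 0 was taken to allow, limits it to 0.071 CPM in heart cells and 0.0533 CPM in spleen cells, while Rpl3 had 3208 CPM in heart cells and 3372 CPM in spleen cells (-0.07). Rpl10l, the testis paralog of Rpl10, had 1 UMI in heart cells and 0 in spleen cells, and Rpl39l, the testis paralog of Rpl39, had 20 in each. Rpl10 had 2139 CPM in heart cells and 2724 CPM in spleen cells (-0.35), and Rpl39 had 5668 and 5516 CPM (0.04, and -0.08 with totals that left out members). Rps19bp1, which binds Rps19 and is no part of the ribosome, had 30.7 CPM in heart cells and 29.6 CPM in spleen cells, and Rpl6l, annotated as a processed pseudogene, had 8.83 and 7.86 CPM.

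**Figure D3:**
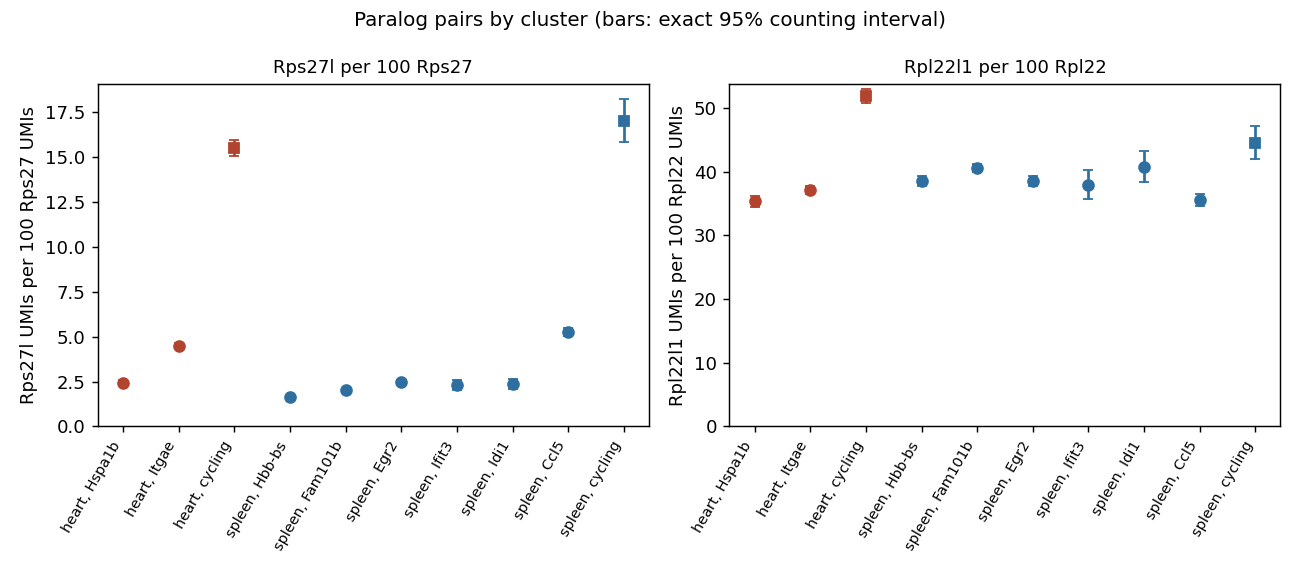
UMIs of Rps27l per 100 of Rps27 (left) and of Rpl22l1 per 100 of Rpl22 (right) in each cluster, heart in red and spleen in blue, squares for the cycling cluster, with exact 95% counting intervals. Both panels peak in the cycling clusters, where Rps27l reached 15.5 per 100 in heart and 17 per 100 in spleen.

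Clusters made without ribosomal protein genes showed how far the share varied inside each organ. There were 3 heart and 7 spleen clusters with at least 50 cells, named here by leading genes. In the heart library members took 29.9% of UMIs in the cluster led by Itgae and Cxcr6 (2161 cells), 34.5% in that led by the heat shock genes Hspa1b and Hspa1a (1229 cells) and 26.1% in the cycling cluster (584 cells). In the spleen library the cluster led by the haemoglobin genes Hbb-bs and Hbb-bt was highest at 39.3% (1321 cells), followed by those led by Fam101b and Dapl1 at 36.0% (2482 cells), Egr2 at 35.8% (1312 cells), Ifit3 at 35.2% (168 cells) and Idi1 and Sqle at 34.2% (181 cells). The spleen cluster led by Ccl5, whose Th1-like markers summed to 3914 CPM, stood at 30.4% (995 cells), and the spleen cycling cluster at 23.6% (110 cells). Heart and spleen clusters thus overlapped in share. Erythroid markers summed to 1000.5 CPM in the haemoglobin-led spleen cluster. Without this cluster the member median was -0.21. Then 26 of 82 members were at least 20% lower in heart cells, where 26.6% of all genes were. With the cluster kept, 34 of 82 (41.5%) were, against 25.4% of all genes, so the excess over all genes was smaller without it. Without it 3 members were at least 25% higher (background 29.8%).

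In 4 members the heart and spleen clusters did not overlap, a smaller part of the members than of all genes. Rpl41 lay between 6897 and 7512 CPM in the heart clusters and between 4718 and 5171 CPM in the spleen clusters. Rpl7a lay between 1629 and 2049 CPM in heart clusters and 1206 and 1496 CPM in spleen clusters, and Rpsa between 8414 and 9456 CPM in heart clusters and 6488 and 7679 CPM in spleen clusters. These 3 of 82 members were higher in every heart cluster than in any spleen cluster, where 14% of all genes were. Rps15, at 914 to 1073 CPM in heart clusters and 1166 to 1592 CPM in spleen clusters, was the only member lower in every heart cluster, against 13.2% of all genes.

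Many of the overlaps involved the cycling cluster. With it left out, 17 of 82 members (20.7%) were lower in both remaining heart clusters than in all 6 spleen clusters, against 28.5% of all genes. Another 6 (7.32%) were higher, against 24.5% of all genes. Both were smaller parts of the members than of all genes. The lower ones included Rpl12, which had 3156 to 3961 CPM in those heart clusters and at least 4136 CPM in those spleen clusters, as well as Rpl5, Rps3a1, Rps6, Rpl11 and Rpl7l1. Rpl24, Rpl27 and Rpl38 joined Rpl41, Rpl7a and Rpsa among the higher ones, although over whole libraries Rpl27 (0.05) and Rpl38 (0.06) stood at -0.07 and -0.06 with totals that left out members. Clusters of 1 library are not replicates, so these counts describe the cells of 2 libraries.

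**Figure D4:**
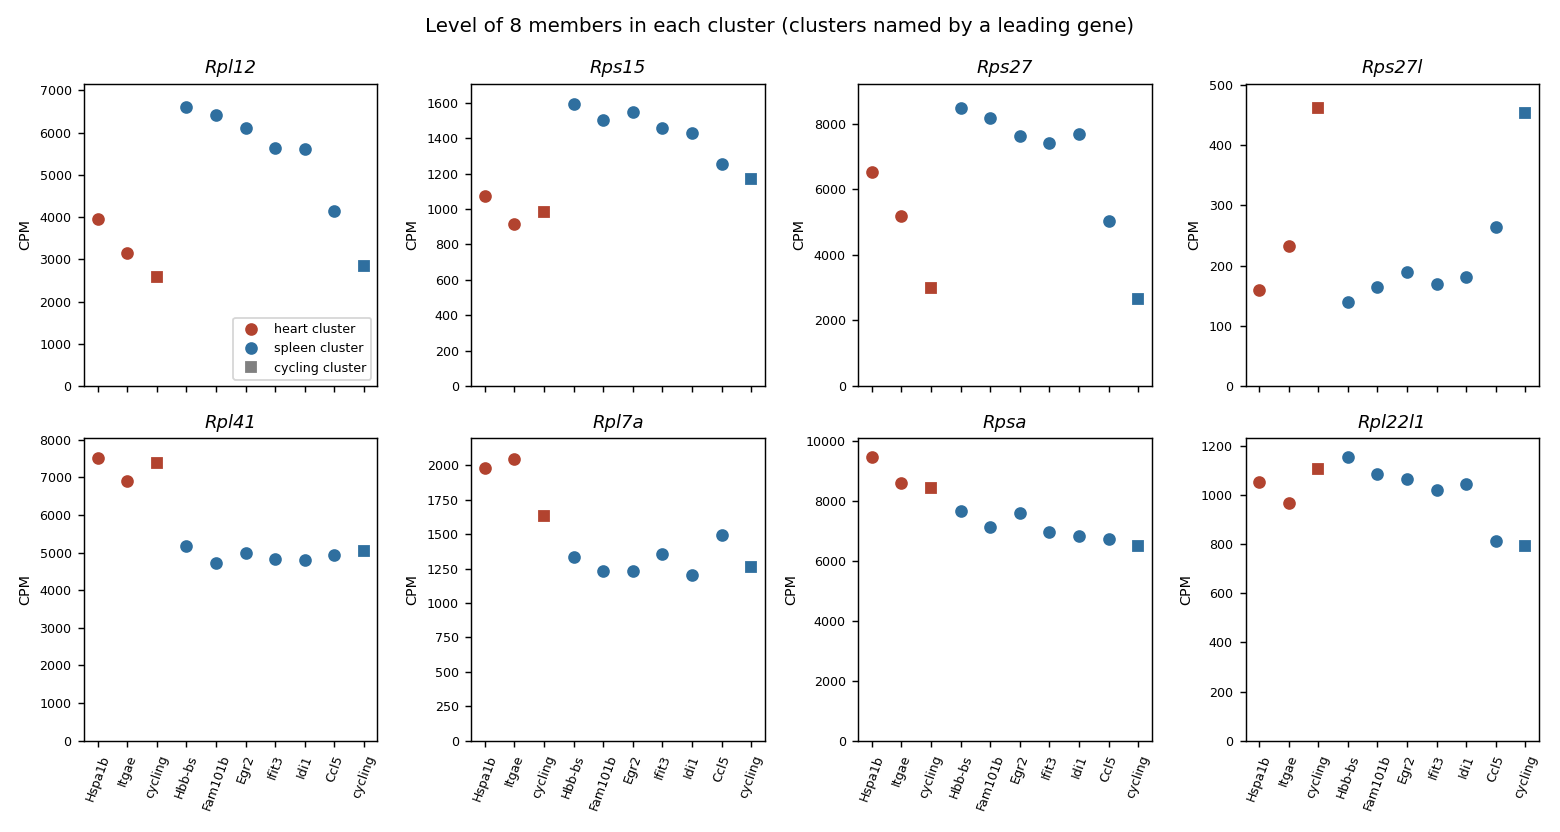
Level of 8 members (CPM, from summed counts) in each heart cluster (red) and spleen cluster (blue), squares for the cycling cluster. Rpl41, Rpl7a and Rpsa lie higher in every heart cluster than in any spleen cluster, Rps15 lies lower, Rpl12 overlaps through the spleen cycling cluster, and Rps27 through the cycling and Ccl5-led spleen clusters.

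Among cells scored as cycling the share was slightly higher in the graft. Cells with at least 2 UMIs of 10 cycling markers after thinning to 1000 UMIs numbered 540 (13.5%) in the heart library and 217 (3.30%) in the spleen library. The cycling cluster held 584 heart cells, of which 78.1% were scored, but only 110 spleen cells (96.4% scored). Many of the 217 spleen cells therefore lay in other clusters, such as that led by Ccl5, where 7.74% of 995 cells were scored. The 2 sets are thus not alike in make-up. Their UMIs fell in members at 26.3% for heart cells and 25.3% for spleen cells. In the remaining cells the shares were 31.0% in heart cells and 35.8% in spleen cells. Cycling cells were deeper, with a median of 18949 UMIs in heart cells, against 13799 in spleen cells, and they held a median of 4704 member UMIs per cell in heart cells and 3076 in spleen cells.

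Among cycling cells the median log2 ratio of members was 0.05. Of 82 members, 1 was at least 20% lower in heart cells (Rpl13a, -0.34, background 26.6%) and 5 were at least 25% higher (background 17.4%). The higher ones were Rpl41 (0.56), Rpl22l1 (0.39), Rps2 (0.39), Rpl37 (0.36) and Rpl7a (0.33). In cells not scored as cycling the median was -0.22, with 29 of 82 members lower (background 27.8%) and 3 higher (background 31%). Rpl12 was at -0.28 among cycling cells and -0.84 among the others. Rplp1 was at 0.09 among cycling cells and -0.42 among the others. Of the 34 members at least 20% lower over all cells, 8 stood above 0 among cycling cells. The share of all lower genes that did so was not computed. The median over all genes past the floor was 0.05 in all cells and -0.07 among cycling cells.

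The spleen cluster led by Ccl5 was closest to graft cells in share. Against it alone, all heart cells differed by -0.56 percentage points, and the median log2 ratio of members was -0.05. Of 82 members, 6 were at least 20% lower (background 26.7%) and 4 at least 25% higher (background 24.8%). The lower ones were Rpl7l1 (-0.53), Rpl13a (-0.48), Rpl29 (-0.46), Rpl5 (-0.43), Rpl12 (-0.38) and Rps15 (-0.37). The higher ones were Rpl41 (0.54), Rpsa (0.37), Rpl7a (0.35) and Rpl22l1 (0.34), and Rps27 stood at -0.06. This cluster was picked after its share had been seen.

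Genes that share the TOP start but are no members lay on both sides of 0. Of 20 such genes past the floor, 5 were at least 20% lower and 4 at least 25% higher in heart cells, with a median log2 ratio of -0.01. Tpt1, a growth-related protein with a classical TOP start, had 9832 CPM in heart cells and 13260 CPM in spleen cells (-0.43), and the initiation factor Eif4b had 80.4 and 115 CPM (-0.51). Hnrnpa1, an RNA-binding splicing regulator, had 306 CPM in heart cells and 162 CPM in spleen cells (0.92), and Nap1l1, a histone and ribosomal protein chaperone, had 235 and 153 CPM (0.62). Fau, which encodes small subunit protein eS30 as a fusion, had 6993 CPM in heart cells and 7479 CPM in spleen cells (-0.10). Gnb2l1, which encodes the Rack1 scaffold on the small subunit, had 2479 CPM in heart cells and 3125 CPM in spleen cells (-0.33).

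Genes that build ribosomes were mostly under the floor, and only 5 of 18 could be compared, with a median of -0.26. That median is the ratio of Nop58, at 43.6 CPM in heart cells and 52.4 CPM in spleen cells. Nop58 passed the floor through spleen cells alone, whereas Fbl (-0.52), Ncl (0.09) and Nop56 (0.29) passed it in both libraries. Of the 5, 2 were at least 20% lower and 0 higher. They were Ebna1bp2 at 48.2 CPM in heart cells and 75.1 CPM in spleen cells (-0.63), which passed the floor through spleen cells alone, and Fbl, the methyltransferase of ribosomal RNA, at 62.3 and 89.7 CPM (-0.52). Nop56, its partner, had 81.4 CPM in heart cells and 66.2 CPM in spleen cells (0.29). Among chaperones of ribosomal proteins 3 of 8 were past the floor (median -0.18), with Bccip lower, at 37.1 CPM in heart cells and 63.2 CPM in spleen cells (-0.76), past the floor through spleen cells alone, and Nap1l1 higher. Of 15 genes of mTORC1 and TOP regulation 3 were past the floor (median 0.36), with 0 lower and 2 higher. They were Rheb, the GTPase that switches on mTORC1, at 182 CPM in heart cells and 108 CPM in spleen cells (0.74), and the cap-binding factor Eif4e at 75 and 58.0 CPM (0.36). The hosts of small nucleolar RNAs Snhg6 and Snhg12, the 2 of that list in the files, had 70.6 and 51.1 CPM in heart cells, against 40.5 and 29.1 CPM in spleen cells, and passed the floor through heart cells alone.

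Ribosomal proteins of mitochondria, a separate set that translates the mitochondrial genome, had a median of -0.08 over 41 of 77 genes past the floor. Of these, 11 were at least 20% lower and 3 at least 25% higher. Among the lower ones, Mrpl41, Mrpl36, Mrps17 and Mrpl11 passed the floor through spleen cells alone, whereas the higher ones passed it in both libraries. Mrpl23, at 61.5 CPM in heart cells and 109 CPM in spleen cells (-0.81), was lowest and Mrpl9, at 93.5 and 51.7 CPM (0.84), highest. Cytosolic initiation factors had a median of 0.07 over 32 of 56 genes, with 5 lower and 8 higher. Among the lower ones, Eif4g3 passed the floor through spleen cells alone, whereas the higher ones passed it in both libraries. Eif4h, at 159 CPM in heart cells and 93.6 CPM in spleen cells (0.76), and Eif1, which helps to find the start codon, at 2361 and 1563 CPM (0.60), were the highest, and Eif4g1, the scaffold of the cap-binding complex, was at 53.8 CPM in heart cells and 76.4 CPM in spleen cells (-0.50). None of these lists had a gene past 2-fold. The background for all lists is that given for members, 25.4% of all genes lower and 32.1% higher at these sizes.

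**Figure D5:**
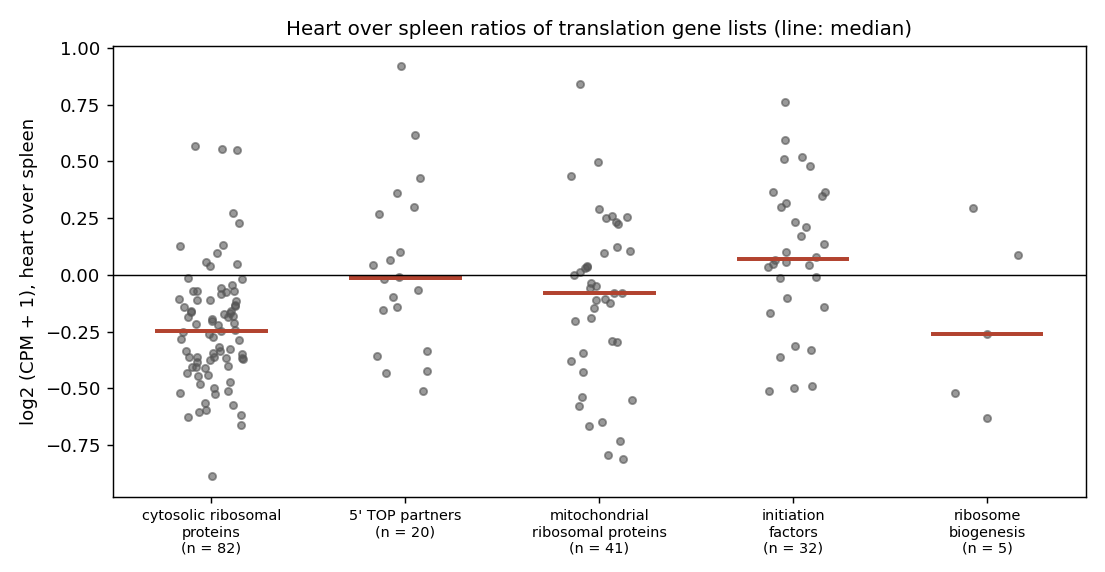
Heart over spleen log2 ratio of (CPM + 1) of each gene past the floor for members and 4 other lists of the translation machinery, with the median as a line (-0.25 for members, -0.01 for TOP partners, -0.08 for mitochondrial ribosomal proteins, 0.07 for initiation factors and -0.26 for 5 ribosome biogenesis genes). The median of the ribosome biogenesis genes is the ratio of Nop58, which passed the floor through spleen cells alone. Horizontal positions within a list are arbitrary.

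Many members have processed copies in the genome, and reads from such copies can be hard to tell from those of the member. Of 86 members with annotated transcripts, 44 shared at least 50% of the 50-base stretches in the last 300 bases of their transcripts with another gene, and 12 shared none. Rpl12, with the lowest ratio, shared 0%, Rps16 13.1% and Rps27l 13.3%. Rpl5 shared 50% and Rpl7a 80.5%. Rpl41 shared 61.5%, with Gm10076 alone, which itself had 437 CPM in heart cells and 248 CPM in spleen cells (0.81). In the 16 members past the floor that shared under 20%, the median log2 ratio was -0.19, with 5 lower and 1 higher. Of all genes past the floor, 25.4% were lower and 32.1% higher. The 16 listed symbols with -ps summed to 190 CPM in heart cells and 207 CPM in spleen cells.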

How the data were processed

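The authors deposited raw counts of UMIs for each gene in each barcode. Per the file headers these were written by Cell Ranger 3.0.2. Cell Ranger 7.0.0 and Seurat 4.0.0 are listed, with mm10, in the submitters' processing notes. The labels' library protocol speaks of a nuclei suspension, whereas the sorted material is labelled as cells. The counting of intronic and multi-mapping reads is not given in the sources used here. Barcodes with at least 1000 UMIs, 500 genes and at most 10% mitochondrial UMIs were kept and clustered (scanpy 1.11.5, leidenalg 0.10.2, 2000 variable genes, 30 components, 15 neighbours, resolution 0.6) without ribosomal protein, mitochondrial, receptor or sex-linked genes. In 1 cluster (88 heart and 13 spleen cells) monocyte or macrophage markers exceeded T cell markers, and it was removed by a rule set after seeing the data. No doublet caller was run. Counts were summed per library and scaled to CPM, with ratios as log2 of (CPM + 1), which understates low genes. CPM intervals are exact Poisson and ratio intervals exact binomial, at 95%. UMI counts collapse PCR copies. Functions were checked on simulated counts. Gene positions and 3′ ends are from GENCODE M21 on GRCm38.

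Members and lists were chosen with earlier results of these data known. Named members were the 8 highest and 8 lowest ratios, fixed paralogs with their partners, stalk genes and Rpsa, Rps27a, Rpl5, Rpl11, Rps6 and Rpl41, with up to 4 genes of each other list. Rpl13a, Rpl27, Rpl29, Rpl38, Fau, Gnb2l1, Gm10076, Nop58, Mrpl11, Mrpl36, Mrpl41, Mrps17 and Eif4g3 were named after their values were seen. Levels of different members were not ranked, since 3′ counts depend on each transcript's end. Alternatives covered totals, scaling, cell filters, thinning, free RNA, cell cycle, pseudocount and floor. Those on member choice and on leaving out clusters were added after seeing the data. Some genes that the lists or the rule take are not reported here.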

Additional observations from a re-analysis of the deposited data

Results flagged for a closer look

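The cycling cluster went the other way from the libraries as a whole. Members took 26.1% of UMIs in its heart cells and 23.6% in its spleen cells, a difference of 2.53 percentage points in favour of heart cells, while all kept cells differed by -5.37 points. With 1 library per organ the difference between these contrasts was not tested. The cluster held 584 heart cells and 110 spleen cells, with medians of 19700 and 16270 UMIs. Erythroid markers stood at 0.24 CPM in its heart cells and 478 CPM in its spleen cells, and their part in the difference was not tested.

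The testis paralogs Rpl10l and Rpl39l, at or near 0 in the kept cells, were read in barcodes with at most 100 UMIs, which entered no comparison. Rpl10l stood there at 9.34 CPM in heart barcodes and 4.56 CPM in spleen barcodes, from 15 and 13 UMIs. Rpl39l stood at 16.2 CPM in heart barcodes and 3.16 CPM in spleen barcodes, from 26 and 9 UMIs.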

How the results depend on the processing

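No paired analysis was possible because each organ had 1 library without a replicate number. The difference in share (percentage points), the member median, the number of members at least 20% lower and the median of TOP partners were recomputed where an alternative touches them. With totals that left out members, where member UMIs are set against the other UMIs and the difference is one of ratios, they were -11.8, -0.36, 45 and -0.13. With mitochondrial and Malat1 counts left out as well they were -14.8, -0.41, 55 and -0.18, over 83 members and 3968 genes past the floor, of which 41% were lower and whose median was -0.20. Median-of-ratios scaling gave medians of -0.29 and -0.062. The difference in share was -5.56 with at most 5% mitochondrial UMIs, -5.06 without cells over 3 times the median UMIs, -5.83 with no cluster removed, -4.95 after thinning, -4.92 as a mean over cells, -5.22 with 10% free RNA removed and -4.73 in cells not scored as cycling. In that order the member median was -0.26, -0.25, -0.27, -0.22, -0.24, -0.24 and -0.22, and the TOP partner median -0.025, 0.011, -0.035, 0.040, 0.031, -0.011 and 0.034, so the sign of the TOP partner median depended on the setting. With no floor the member median was -0.21. In cells scored as cycling the share and the member median reversed (0.997 and 0.047), and TOP partners had a median of 0.021. There 1 member was lower and 5 higher (background 26.6% and 17.4%). In these cells 8 of the 34 lower members stood above 0, among them Rps4x (0.050) and Rplp1 (0.087), with no share over all genes computed. In settings added after seeing the data, the share and the medians were -4.44, -0.21 and 0.0041 without the haemoglobin-led spleen cluster and -6.76, -0.29 and -0.089 without the heat-shock-led heart cluster. There 26 and 40 of 82 members were lower. The background was 26.6% of all genes in the former setting and was not computed in the latter. Against the Ccl5-led spleen cluster the share and the medians were -0.56, -0.051 and -0.032, with 6 of 82 members lower (background 26.7%) and Rplp1 at 0.030. Members that shared under 20% of their 3′ stretches, fewer by construction, gave -1.12 and -0.19, with 5 of 16 lower and 1 higher (background 25.4% and 32.1%). The causes were not tested. The 57 named genes gave 912 values under the 16 settings that can move a gene's ratio. Of these values, 3 changed sign from a ratio past the fold used, all named above. Of the others, 554 were scored as moved and 355 as the same. Genes whose main ratio lay within that fold could not enter the count of 3. Among such genes, Rpl37 (-0.017) and Ncl (-0.028) fell below 0 with totals that left out members. Depth did not limit members past the floor, whose counting intervals are narrow, but 1 library per organ leaves the spread between animals unmeasured.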
